A study of Mus musculus with 4 samples.

Results

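Cytosolic ribosomal protein genes encode the proteins of the small and the large subunit of the cytoplasmic ribosome. They were described here across Treg cells made in culture from mice with and without a Cd4-Cre transgene on floxed Junb alleles. The genes were chosen by name alone: probes whose gene name in the scanner files was Rpl or Rps with a number and at most 2 further characters, Rplp0 to Rplp2, or Rpsa, with the kinase genes named Rps6k left out. The rule took in 84 genes with 182 probes, among 36876 gene names on the array. Of these genes, 31 encode proteins of the small subunit, 43 of the large subunit and 3 of the large subunit's stalk. The other 7 are paralogs of a standard subunit gene (Rps27l, Rps4l, Rpl3l, Rpl7l1, Rpl10l, Rpl22l1 and Rpl39l). After probes were kept that rose well clear of background on the 2 arrays of either genotype, 82 of the 84 genes were measured, among 22475 gene names tested. Rpl10l, a testis form of Rpl10, was above background on 0 arrays, and Rpl3l, a striated muscle form of Rpl3, was above it on the second control array only.

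RNA was hybridised to 4 one-colour Agilent arrays of C57BL/6 mice, 2 from Junbfl/fl controls and 2 from Junbfl/flCd4-Cre mice. Both genotypes carry the floxed alleles, and Cre is driven by the Cd4 promoter, which acts in T cells. Sorted naive CD4+ T cells were stimulated for 3 days with plate-bound antibody to CD3 (1 μg/ml) and antibody to CD28 (0.5 μg/ml), in the presence of TGF-β1 (5 ng/ml, recombinant human) and of antibodies that block IL-4 and IFN-γ (5 μg/ml of either). In the extraction label the RNA is said to come from colon, against cultured Treg cells in the remaining labels. Separate animals or cultures behind the 2 arrays of a genotype are not stated, and the p-values therefore describe the spread among arrays, which may be technical.

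Ribosomal proteins are made in nearly equal amounts because each ribosome holds about the same complement of them, and their mRNAs are among the most abundant in dividing cells. In vertebrates most of these mRNAs begin with a cytosine followed by an unbroken run of pyrimidines, the 5′ terminal oligopyrimidine (TOP) tract. LARP1 binds this tract, and mTORC1 signalling governs how well such mRNAs are translated. Activated T cells enlarge and divide within days of stimulation, and ribosome production is part of that growth.

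The promoter windows below show the tract for genes whose values are given in the next paragraphs. Each holds the 40 bases before the start annotated by RefSeq (assembly GRCm38.p6) and the 20 bases from it, and capitals mark a run that begins with C, continues with at least 4 bases that are each C or T, and starts within 5 bases of the annotated start.
Rps6, chr4:86857348-86857407, minus strand: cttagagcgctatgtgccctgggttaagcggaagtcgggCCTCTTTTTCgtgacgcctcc
Rps18, chr17:33955646-33955705, minus strand: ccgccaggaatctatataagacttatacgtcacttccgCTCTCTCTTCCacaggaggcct
Rps2, chr17:24720023-24720082, plus strand: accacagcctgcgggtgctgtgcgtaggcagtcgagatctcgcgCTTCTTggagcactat
Rps27, chr3:90213629-90213688, minus strand: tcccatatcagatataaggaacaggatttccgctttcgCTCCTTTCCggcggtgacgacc
Rps27l, chr9:66946046-66946105, plus strand: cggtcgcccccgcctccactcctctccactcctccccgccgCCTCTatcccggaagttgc
Rpl38, chr11:114668540-114668599, plus strand: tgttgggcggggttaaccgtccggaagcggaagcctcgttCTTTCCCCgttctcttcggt
Rplp2, chr7:141447611-141447670, plus strand: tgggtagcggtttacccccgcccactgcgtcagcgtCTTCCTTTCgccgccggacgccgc
The run is 10 bases long in Rps6, 11 in Rps18, 9 in Rps27 and 5 in Rps27l.

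RefSeq promoters were matched for 63 of the 84 genes (75 promoters, some genes having several starts). A run of this kind stood at the start of 29 of the 63 genes (46.0%), against 21.1% of the 26962 other genes with a promoter. The motif CCGGAAG, a match to ETS family factors, lay on either strand of the promoter (250 bases before the start to 50 after it) in 26 genes (41.3%) against 9.85% of other genes. The motif TGACTCA, a match to AP-1, the factor of which JunB is a subunit, lay on either strand in 2 genes (3.17%) against 5.95% of other genes. These are matches of letters and not binding sites, and a start annotated a few bases away hides a tract from the search.

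Junb was read first as the check of the labels. Its brightest probe lies towards the 3′ end and read 9791 and 9072 in processed signal on controls 1 and 2, against 1053 and 10078 on the arrays labelled Junbfl/flCd4-Cre 1 and 2, called Cre arrays below after their label. A second probe read 47.2 and 31.7 on the controls, against 4.11 and 1.47 on the Cre arrays, neither well above background. The 3′ probe therefore did not separate the genotypes while the second probe did, and each direction given here rests on the labels. All 11 T cell markers were measured, with a summed signal of 1028 and 1017 times the array's 75th percentile on the controls against 936 and 845 times on the Cre arrays. Of the 11, 5 were higher on the Cre arrays, and the median log2 difference was -0.15. Thy1 and Cd2 were called lower (log2 differences -0.98 and -1.33, adjusted p = 0.042 and 0.048, limma). Markers of myeloid cells summed to 26.1 and 17.7 against 60.9 and 32.2 times, and those of B cells to 3.56 and 1.39 against 7.16 and 4.74 times. All 5 measured markers of each of these 2 lists were higher on the Cre arrays (of 7 and 6 listed), and Adgre1 and Fcgr1 were above background on no array. Only the B cell marker Ms4a1 was called among them (adjusted p = 0.029, limma). The myeloid sum follows Itgam, its brightest marker, with a log2 difference of 0.93 (adjusted p = 0.29, limma). The 4 Treg markers summed to 96.3 and 94.0 against 29.0 and 49.9 times, a sum that follows Il2ra, the brightest of the 4. Ctla4 was called lower (adjusted p = 0.048, limma) and Ikzf2 higher (adjusted p = 0.032). Foxp3 and Il2ra, each below both controls on both Cre arrays, did not pass (adjusted p = 0.13 and 0.065). Of 8 colon epithelium markers, Krt20, Vil1, Cdh1 and Muc2 were above background on no array, and the list summed to at most 0.659 times, while colon stroma markers summed to 28.5 and 24.0 against 17.2 and 17.7 times. The stroma sum follows Acta2, its brightest marker; the other 4 of 5 measured stroma markers were higher on the Cre arrays, Col1a1 and Dcn by the test (adjusted p = 0.040 and 0.030), and the median log2 difference of the 5 was 1.14. The part of these cell types in the results below was not tested. In bulk RNA, fewer cells of a type and less RNA per cell cannot be told apart.

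None of the 82 measured ribosomal protein genes passed the test, and their differences between the genotypes varied less than those of other genes. Their median log2 difference, Junbfl/flCd4-Cre minus Junbfl/fl, was -0.17 and became 0.25 under cyclic loess normalization, which fits and subtracts trends between arrays along brightness. Minus the median of the other genes nearest in brightness, the members' median was 0.02 under both settings. The turn to positive values under cyclic loess was thus shared by other genes as bright as the members. Negative differences stood for 68 genes and positive ones for 14, against 7 and 75 under cyclic loess. The middle 50% of genes lay between -0.27 and -0.05, an interval of 0.22 log2, whereas the same interval over all genes tested was 1.18 wide around a median of 0.01. Most genes tested are dimmer than the members. Among the other genes nearest to a member in brightness, the interval had a median width of 0.67. Over the 1046 brightest other genes it was 0.52 wide around a median of -0.30. The members thus lay close together, well within the spread of the whole array. Scaled to each array's 75th percentile over probes, on a log2 scale where 0 is that percentile, the median gene stood at 8.61 and 8.61 on the controls, compared with 8.39 and 8.50 on the Cre arrays. Both Cre arrays lay below both controls on this measure. Between the 2 Cre arrays the median gene differed by -0.10 (first minus second), and between the 2 controls by -0.02.

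By limma's test with Benjamini-Hochberg adjustment over all genes, 0 of 82 were called at an adjusted p under 0.05 in either direction, where 8.46% of all genes were called, 7.03% higher and 1.43% lower. The smallest adjusted p was 0.053, for Rps27l. At an unadjusted p under 0.05 there were 6 genes of 82, against 41.4% of all genes. For 57 genes both Cre arrays lay below both controls, where 38.5% of all genes did so, and for 3 both lay above, against 36.6% of all genes. Most members are bright, and of the 1046 brightest other genes 714 lay below and 152 above in this way. The standard error of a difference had a median of 0.15 with n = 2 arrays per genotype, and a 95% interval reached a median of 0.41 to either side, so changes of the size measured for most members were not resolvable with these arrays. Differences taken within array number 1 and within array number 2 had medians of -0.23 and -0.14, and 63 genes were negative in both and 11 positive in both (no cyclic loess value was computed for these).

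**Figure D1:**
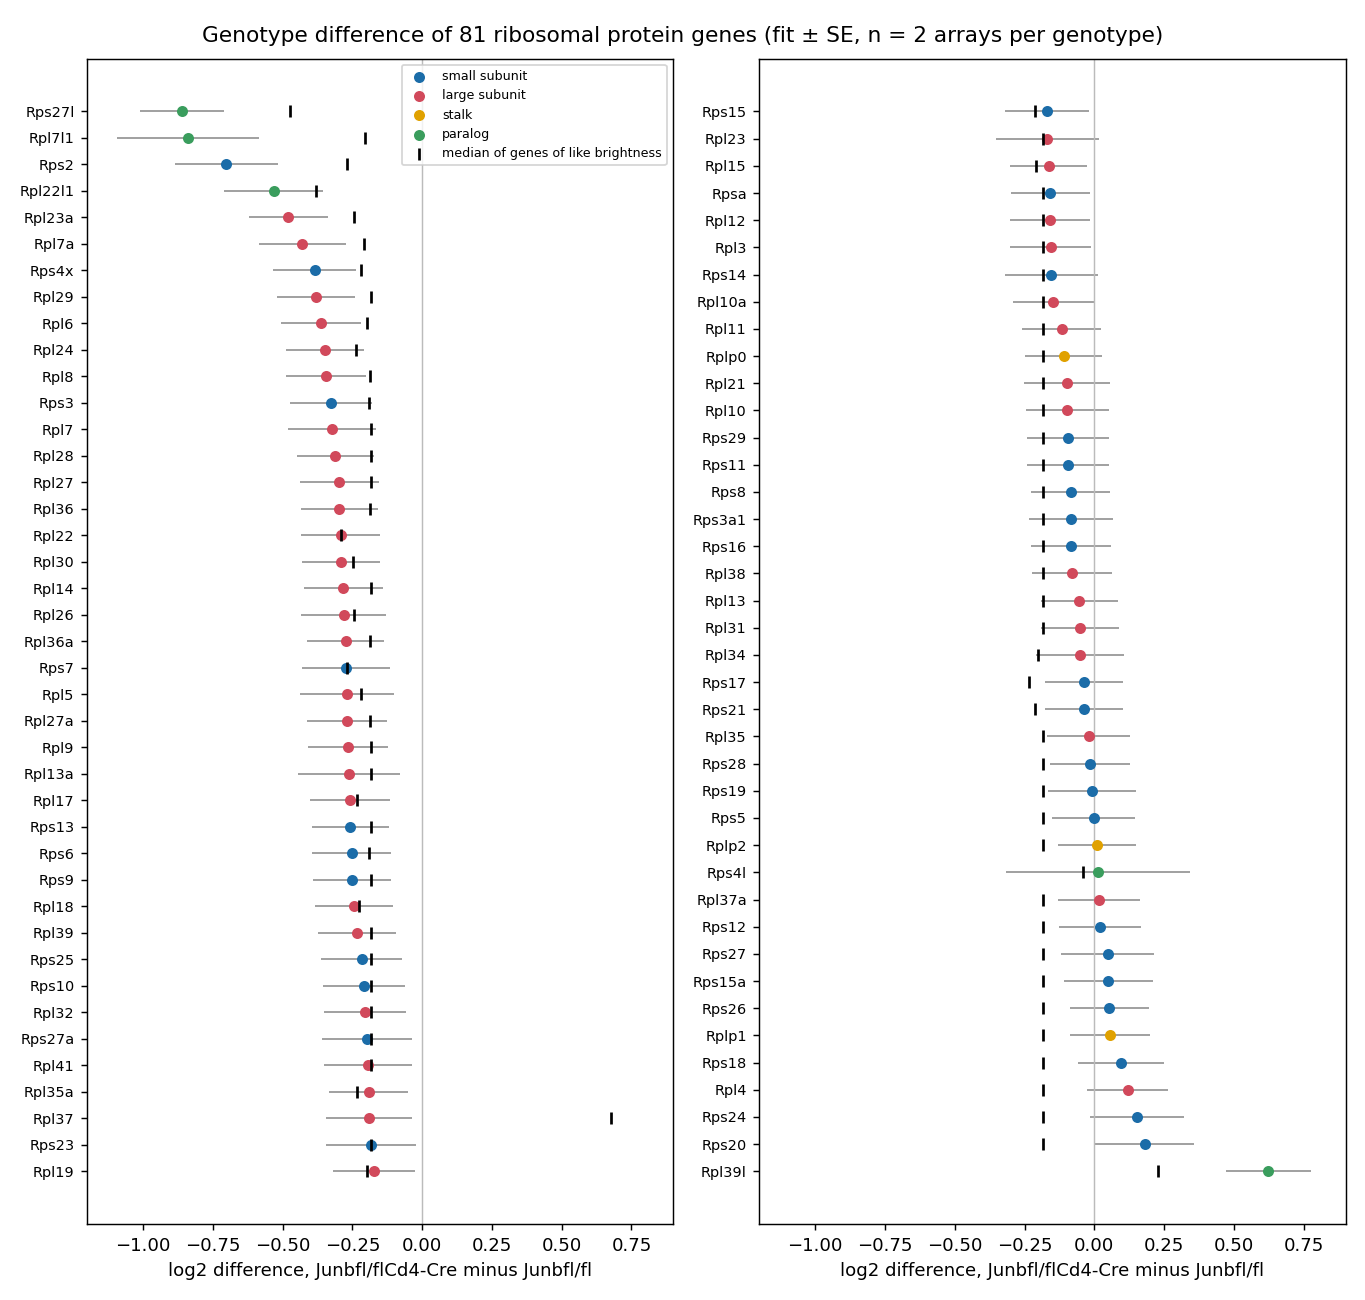
Fitted log2 difference (Junbfl/flCd4-Cre minus Junbfl/fl, horizontal axis) of 81 of the 82 measured ribosomal protein genes, ordered from the lowest to the highest, with bars of 1 standard error (n = 2 arrays per genotype) and a black tick for the median of the other genes nearest in brightness. Most points lie between -0.4 and 0.1, while Rps27l, Rpl7l1 and Rps2 lie lowest and Rpl39l highest. Under cyclic loess normalization 75 of the 82 were positive.

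Small subunit proteins are part of the subunit that binds and decodes the mRNA. Their 31 genes had a median difference of -0.09 (0.33 under cyclic loess), with 24 negative and 7 positive. Rps2, whose protein lies near the entry of the mRNA channel, stood apart from the others: its scaled log2 signal was 8.04 and 7.81 on controls 1 and 2, and 7.35 and 7.09 on Cre arrays 1 and 2. The 2 genotypes did not overlap, and the difference was -0.70 ± 0.19 (SE, n = 2 per genotype; adjusted p = 0.081, limma). A second Rps2 probe gave -0.73, and genes of like brightness had a median of -0.27. The difference stayed negative under cyclic loess (-0.28) and passed the test with median scaling of the arrays (adjusted p = 0.035) (where 33.1% of all genes were called lower) and with the array number as a block (adjusted p = 0.045), but not under cyclic loess (adjusted p = 0.31), with quantile normalization (0.16), with normexp background (0.15) or in the authors' log2 signals (0.17). With that block 2 members were called lower, Rps2 and Rps27l, against 9.3% of all genes.

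Rps6, the protein phosphorylated by S6 kinases downstream of mTORC1, read 8.43 and 8.42 on the controls against 8.14 and 8.20 on the Cre arrays. Both Cre arrays were below both controls, with a difference of -0.25 ± 0.14 (adjusted p = 0.24; 0.17 under cyclic loess) and a 95% interval of -0.65 to 0.14. Rps4x, an X-linked protein with a Y-linked copy in some mammals, read 8.17 and 8.18 against 7.71 and 7.86, a difference of -0.38 that is 0.04 under cyclic loess. Rps25, needed by several viral internal ribosome entry sites, and Rps27a, made as a fusion with ubiquitin, had differences of -0.22 and -0.20. Rpsa, also known as the laminin receptor precursor, had -0.16, and Rps14, whose loss underlies the anaemia of a deletion syndrome, had -0.15. These 4 values are all positive under cyclic loess, between 0.21 and 0.27. Rps19, the gene most often mutated in Diamond-Blackfan anaemia, read 9.13 and 9.17 against 9.04 and 9.24, a difference of -0.01 with overlapping genotypes.

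The highest small subunit values belonged to very bright probes. Rps20 read 9.47 and 9.66 on the controls against 9.62 and 9.87 on the Cre arrays, a difference of 0.18 ± 0.18. Rps24, another Diamond-Blackfan gene, read 9.20 and 9.38 against 9.34 and 9.54, a difference of 0.15 ± 0.17. Rps18 had the highest processed signal of all ribosomal protein probes on each array, with 123300 and 124075 on the controls against 100631 and 95714 on the Cre arrays, and a difference of 0.10 ± 0.15. In all 3 the genotypes overlapped and the adjusted p lay between 0.46 and 0.65. With scaling to the median over probes the 3 differences were -0.35, -0.38 and -0.44.

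Large subunit proteins are part of the subunit that holds the peptidyl transferase centre and the exit tunnel. Their 43 genes had a median difference of -0.23 (0.18 under cyclic loess), with 40 negative and 3 positive. For 35 of them both Cre arrays lay below both controls, where 38.5% of all genes did so, and 714 of the 1046 brightest other genes. Rpl23a, which sits at the tunnel exit, read 7.97 and 8.02 on the controls against 7.48 and 7.56 on the Cre arrays, a difference of -0.48 ± 0.14 (adjusted p = 0.093). Rpl7a read 8.43 and 8.26 against 7.86 and 7.97, a difference of -0.43 ± 0.15 (adjusted p = 0.12). Neither gene overlapped between genotypes, and under cyclic loess Rpl23a was at -0.06 and Rpl7a at -0.0032 (adjusted p = 0.80 and 0.99). Their neighbours in brightness had medians of -0.24 and -0.21.

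Rpl5 and Rpl11, which bind the smallest ribosomal RNA of the large subunit and the p53 regulator Mdm2, had differences of -0.27 and -0.12. Rpl5 read 8.08 and 8.15 on the controls against 7.72 and 7.97 on the Cre arrays, and Rpl11 read 9.24 and 9.22 against 9.06 and 9.16. Both were lower on each Cre array than on each control, by amounts within the 95% interval's reach. Rpl3, close to the peptidyl transferase centre, and Rpl10a had differences of -0.16 and -0.15. Rpl10, which joins the subunit late in its assembly, had -0.10, and Rpl38, whose loss alters the mouse skeleton, had -0.08. Under cyclic loess these 6 genes were positive, from 0.16 to 0.35. Rpl4 was the highest of the standard large subunit genes, at 0.12 ± 0.15. Rpl37 was represented by a dim probe, with processed signals of 14.7 and 15.9 on the controls against 10.9 and 9.03 on the Cre arrays, far from the brightness of every other standard large subunit gene. Its difference was -0.19, and -0.87 when the median of genes of like brightness was subtracted, the lowest such value of the 82 genes.

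The large subunit median lay below the small subunit median under each of the 13 other settings tried as well as under the one used here. Minus genes of like brightness the median was 0.09 for the small subunit (20 genes above their neighbours' median and 11 below). It was -0.02 for the large subunit (18 above and 25 below). The neighbours' medians had a median of -0.18 for either subunit, so subtracting them could not adjust for brightness between the subunits. Small subunit genes were the brighter ones, with median scaled signals of 8.85 and 8.89 on the controls against 8.54 and 8.56. The part of brightness in the gap was not tested. The gap between the subunits was not tested, because the genes are not replicates of a genotype.

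The stalk proteins recruit the translation factors that hydrolyse GTP. Rplp0, the base of the stalk, read 9.11 and 9.10 on the controls against 8.97 and 9.02 on the Cre arrays, a difference of -0.11 ± 0.14 (0.32 under cyclic loess). Rplp1 read 9.48 and 9.49 against 9.49 and 9.59, a difference of 0.06 ± 0.14, and Rplp2 read 9.40 and 9.44 against 9.40 and 9.46, a difference of 0.01 ± 0.14. The Rplp2 genotypes overlapped, the Rplp1 genotypes nearly so, and their differences became -0.20 for Rplp1 and -0.19 for Rplp2 with quantile normalization.

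The 5 measured paralogs had differences from -0.86 to 0.62, against -0.70 to 0.18 for the standard proteins. Most paralog probes are dim, and beside genes of like brightness the ranges were -0.64 to 0.40 for the paralogs and -0.87 to 0.36 for the standard proteins (-0.43 to 0.36 without Rpl37). Rps27l, a p53-inducible relative of Rps27, read 6.41 and 6.38 on the controls against 5.45 and 5.61 on the Cre arrays. The genotypes did not overlap, and the difference of -0.86 ± 0.15 (adjusted p = 0.053, 95% interval -1.28 to -0.44) was the lowest of all 82 genes. A second Rps27l probe gave -0.97 and was the single member probe of 178 that passed when every probe was tested (adjusted p = 0.048, limma), where 6.78% of all probes were called and 1.25% were called lower. The gene itself passed with the array number as a block (adjusted p = 0.035; 9.3% of all genes called lower), with median scaling (0.035; 33.1%) and with the mean of its probes (0.048; 1.35%). It did not pass under cyclic loess (difference -0.46, adjusted p = 0.13), with quantile normalization (0.10), with normexp background (0.061) or in the authors' log2 signals (0.070). Rps27, the standard protein, read 8.94 and 9.09 against 8.96 and 9.17, a difference of 0.05 ± 0.17.

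The mRNAs of this pair are read by different sequences. The second Rps27l probe and the dimmer Rps27 probe, both 60 bases of coding sequence, are given 5′ to 3′ with the positions of the files on build mm9; the Rps27l probe spans an intron.
Rps27l, chr9:66793986-66794695, plus strand: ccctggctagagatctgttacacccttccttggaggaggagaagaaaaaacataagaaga
Rps27, chr9:114891672-114891731, minus strand: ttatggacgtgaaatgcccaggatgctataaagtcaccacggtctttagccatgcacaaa
The dimmer Rps27 probe gave a difference of 0.02. The files place both Rps27 probes on chromosome 9 while RefSeq has the gene on chromosome 3, and whether a transcribed copy adds to the signal was not tested. Within array number 1 the Rps27l difference was 0.97 below that of Rps27 (gap -0.97), and within number 2 the gap was -0.85. The gap had the same sign for each pairing of arrays, from -1.03 to -0.79. The gaps between partners were not tested.

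Rpl7l1, a relative of Rpl7, read 1.42 and 0.83 on the controls against 0.32 and 0.24 on the Cre arrays, a difference of -0.84 ± 0.25 (adjusted p = 0.096). Rpl7 had a difference of -0.32, and the gap between the partners was -0.67 in number 1 and -0.37 in number 2. Rpl22l1, the partner of a protein that αβ T cells need for their development, read 7.10 and 6.83 against 6.52 and 6.35, a difference of -0.53 ± 0.18 (adjusted p = 0.11) that was -0.12 under cyclic loess (adjusted p = 0.61) and -0.23 in the authors' log2 signals (0.40). Rpl22 itself read 7.48 and 7.47 against 7.21 and 7.15, a difference of -0.29 ± 0.14 that equalled the median of its neighbours in brightness. Rpl39l, a form of Rpl39 enriched in testis, was the highest of the 82 genes: it read -1.46 and -1.55 on the controls against -0.80 and -0.96 on the Cre arrays, a difference of 0.62 ± 0.15 (adjusted p = 0.076). Genes as dim as Rpl39l had a median of 0.23, and its gap to Rpl39 was 0.90 and 0.81 in the 2 array numbers. With scaling to the median over probes the Rpl39l difference was 0.09, and in the authors' log2 signals it was 0.32. Rps4l, whose probe was designed on a transcript that RefSeq lists as non-coding, read 0.46 and -0.35 against -0.03 and 0.16 and overlapped fully.

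**Figure D2:**
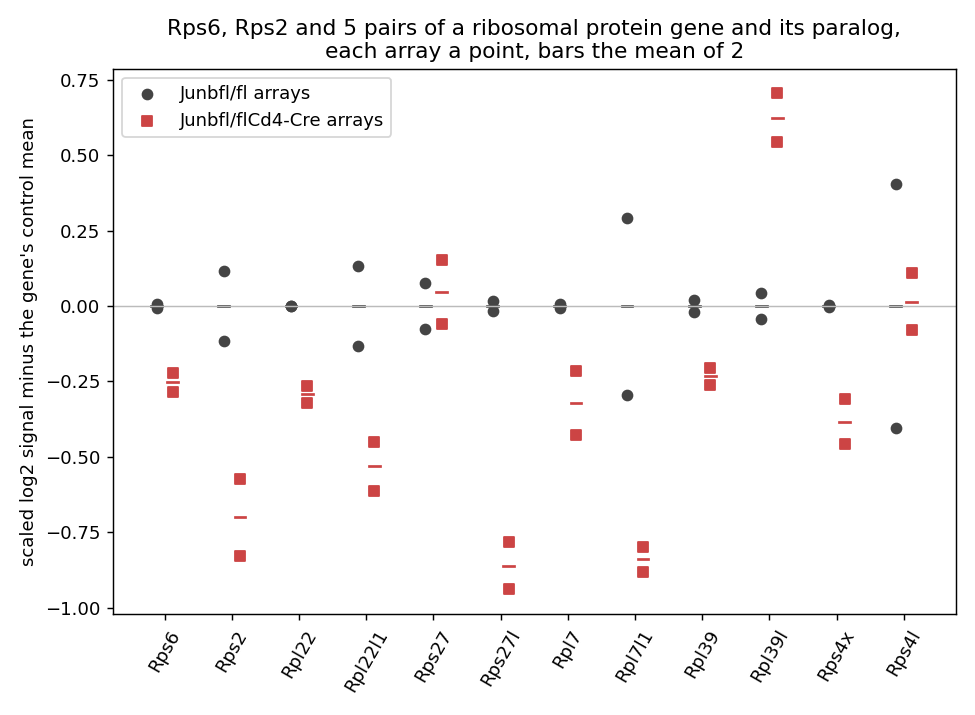
Scaled log2 signal of each array minus the mean of the 2 control arrays of the same gene (vertical axis) for Rps6, Rps2 and the 5 measured paralogs beside their partners, with each array as a point and each mean as a bar. Rps27l lies below Rps27 by 0.91 log2 on average while Rpl39l lies above Rpl39 by 0.86, and the Rps4l arrays overlap.

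Differences on these arrays went with brightness, so each member was set against the 2.24% of other genes nearest to it in mean log2 signal over the 4 arrays. Members minus neighbours had a median of 0.02, with 43 genes above their neighbours' median and 39 below, and 72 of 82 lay within their neighbours' middle 50%. The even split depended on the scaling. With quantile normalization 20 of 82 lay above their neighbours (median -0.08), and with normexp background 23 of 82 (-0.09). In the authors' log2 signals it was 25 of 83 (-0.11), where the 83 include Rpl32l, a gene name outside the members. The neighbours themselves had a median of -0.18, which is close to the members' own. The brightest 5% of other genes (1046 genes) had a median of -0.30 and a middle interval 0.52 wide. Among the members, brighter probes had higher differences (Spearman 0.55 across the 82 genes, and 0.63 across 76 without the paralogs and Rpl37), a description across genes of the same 4 arrays. For the brightest members the neighbourhood is lopsided, since only 4 neighbours of Rps18 and 6 of Rps20 were brighter than the gene itself. The median against neighbours was -0.09 with the nearest 0.451% of genes and 0.18 with the nearest 8.94%, so its sign depends on how near a neighbour has to be. Differences within array numbers 1 and 2 had a Pearson correlation of 0.81 across the 82 genes and 0.90 across the 76.

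**Figure D3:**
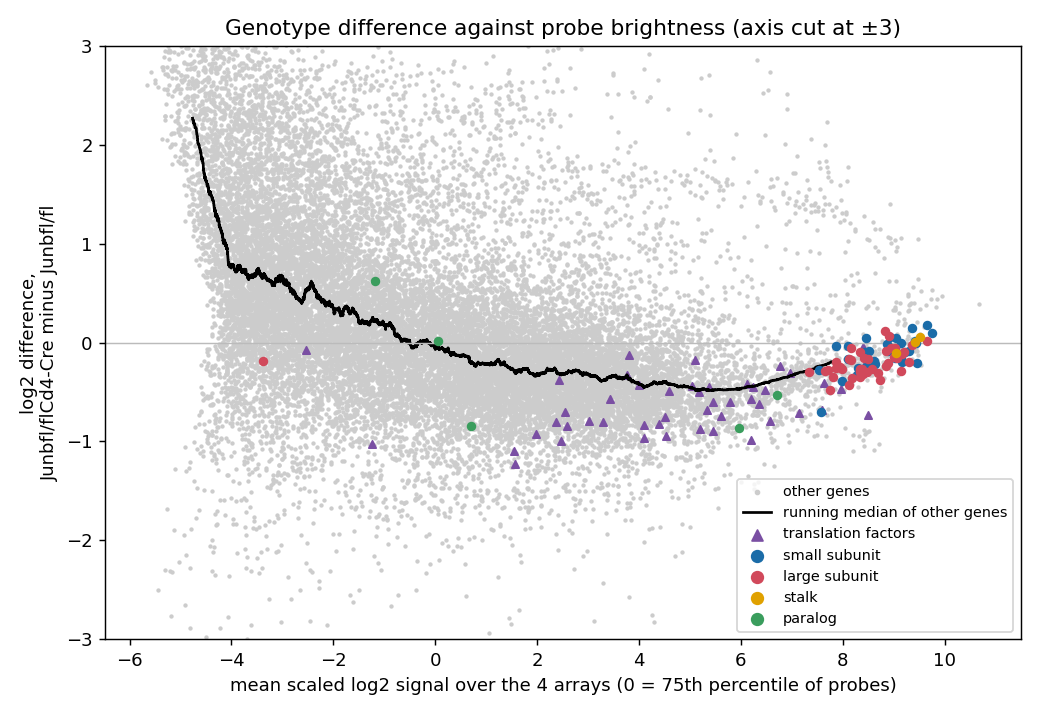
Fitted log2 difference (vertical axis, drawn from -3 to 3) against mean scaled log2 signal over the 4 arrays (horizontal axis) for other genes (grey), translation factors (triangles) and ribosomal protein genes by class, with a running median of other genes as a black line. Ribosomal protein genes other than the dim ones sit at the bright end, and most of them lie beyond the end of the line, which stops short of the brightest genes. Most translation factors lie below the line.

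Translation factors load and move the ribosome along the mRNA. All 48 listed factors were measured and all 48 were negative, with a median of -0.65. Under cyclic loess the median was -0.28 with 40 of 48 negative, and in the authors' log2 signals -0.35 with 44 of 48. By limma's test 0 were called, while 33 had an unadjusted p under 0.05, against 41.4% of all genes. With the array number as a block 15 were called lower, where 9.3% of all genes were, and with median scaling 42, where 33.1% were. For 45 of the 48 both Cre arrays lay below both controls, against 38.5% of all genes. Beside genes of like brightness their median was -0.26, and it lay between -0.31 and -0.21 under all settings tried, so the factors were further from their neighbours than the ribosomal proteins were. The gap between the 2 lists was not tested. Eef1e1, a protein of the multi-synthetase complex, had processed signals of 795 and 564 on the controls against 238 and 190 on the Cre arrays, a difference of -1.23 ± 0.21 (adjusted p = 0.051). Etf1, the factor that releases the finished chain, read 7878 and 6856 against 3337 and 2657, a difference of -0.87 ± 0.15 (adjusted p = 0.052; -0.48 under cyclic loess). At the other end, Eef1a1, the factor that brings aminoacyl-tRNA to the ribosome and whose mRNA carries a TOP tract, had a difference of -0.05 ± 0.14 that turned to 0.38 under cyclic loess.

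Of 10 other genes whose mRNAs carry or are assumed to carry a TOP tract, 8 were negative and 0 were called, with a median of -0.29 and of -0.02 beside genes of like brightness. Fau, whose product releases a ribosomal protein that the name rule does not reach, had a difference of -0.08 (0.34 under cyclic loess). Rack1, a protein of the small subunit outside the Rps names, had 0.04 (0.46), so both lay among the standard ribosomal proteins. Nap1l1, a histone chaperone, had -0.85 ± 0.20 (adjusted p = 0.073; -0.44 under cyclic loess) and Btf3, part of the nascent chain complex, had -0.59 ± 0.15 (adjusted p = 0.076; -0.18 under cyclic loess, adjusted p = 0.39). Of 23 regulators of ribosomal protein mRNA translation, 16 were negative, 7 were positive and 0 were called. Larp1, the TOP-binding protein, read 8008 and 6622 on the controls against 2784 and 2834 on the Cre arrays, a difference of -0.94 ± 0.18 (adjusted p = 0.060) and of -0.56 under cyclic loess. Rheb, the GTPase that activates mTORC1, went the other way, reading 18602 and 17222 against 25537 and 19589 before scaling, a difference of 0.75 ± 0.15 (adjusted p = 0.061), which was 1.17 and passed under cyclic loess (adjusted p = 0.0498).

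Members with a tract at the annotated start, as in the windows of Rps6 and Rps18 above, were set beside those without. The 29 measured genes with a tract had a median difference of -0.18 and the 32 without had -0.18. Genes counted as without can still carry a tract, because a start annotated a few bases away hides it. In Rps25 and Rpl4, both counted as without, a pyrimidine run led by C lies further before the annotated start. The split therefore depends on the annotated starts, and a difference between mRNAs with and without a TOP tract was not tested. With and without CCGGAAG the medians were -0.17 and -0.19.

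Most genes had several probes, which repeat the measurement at other places on the transcript. Of the 59 genes with at least 2 tested probes, 11 had probes of opposite sign, and the range between probes of a gene had a median of 0.19. The brightest probe had the highest difference of its gene in 46 genes and the lowest in 7. The median over the brightest probes was -0.19 and over their 96 other probes -0.33, or -0.02 and -0.05 beside probes of like brightness. Most dim probes of these 59 genes were negative: 20 probes of 18 genes stayed under a processed signal of 3000 on every array, and 17 of them were negative, with a median of -0.51. The single dim probes of Rpl37, Rpl7l1, Rps4l and Rpl39l are outside this count, at -0.19, -0.84, 0.01 and 0.62. Of these 20 probes, 15 were designed on Ensembl or GenBank sequences and not on a RefSeq transcript. An example is Rps12, where a GenBank probe read 360 and 366 on the controls against 124 and 133 on the Cre arrays, a difference of -1.07, while the bright probe gave 0.02. An Rpl26 probe on an Ensembl transcript read 14.9, 13.4 and 13.7 on 3 arrays and 286 on the second Cre array, and its difference of 2.58 ± 1.62 rests on that array alone. A GenBank probe of Rps4x also went up, reading 19.3 and 21.7 on the controls against 34.9 and 26.7 on the Cre arrays, a difference of 1.00 ± 0.18 (adjusted p = 0.054 over all probes, limma), while the bright probe gave -0.38.

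The places of these probes limit what their signals mean. The files put 7 of the 178 tested member probes on another chromosome than the gene, for Rps27, Rps29, Rpl13 and Rpl36, and 1 had no position. Rps2 is the 1 gene with probes far apart on the same chromosome: the files place its brighter probe, used for the value above, at chr17:42864841-42864900 and the second at chr17:24857583-24857642 (mm9). Processed copies of ribosomal protein genes are common in mouse chromosomes, and a probe that matches both reads their sum.

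**Figure D4:**
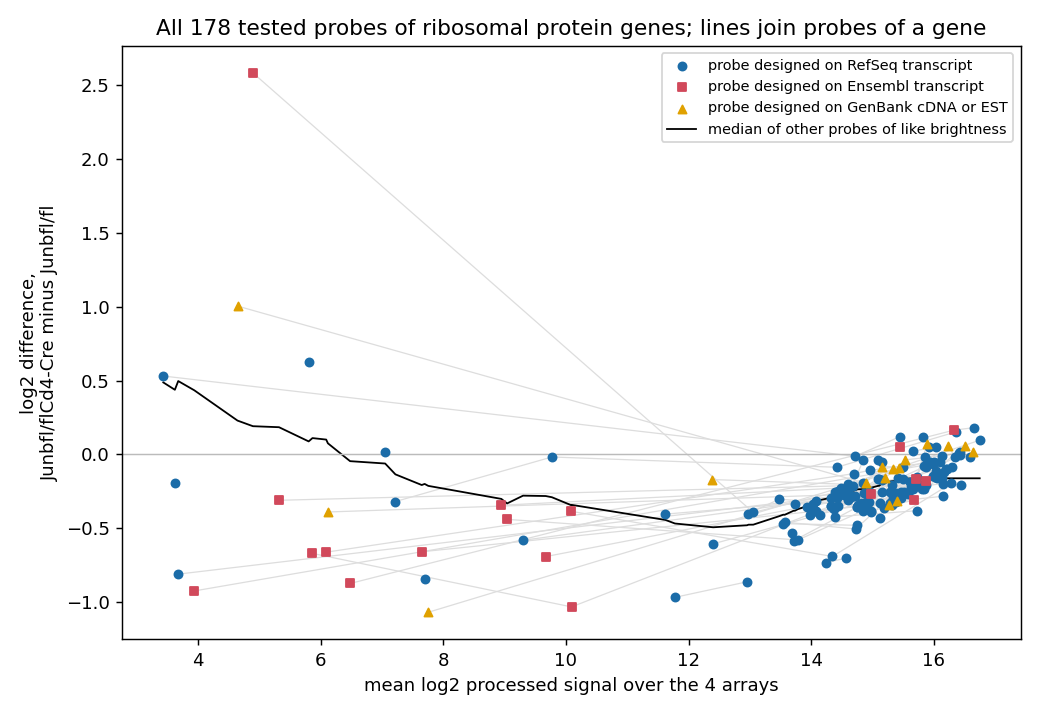
Log2 difference (vertical axis) against mean log2 processed signal over the 4 arrays (horizontal axis) for the 178 tested probes, coloured by the kind of sequence each was designed on, with grey lines joining probes of a gene and a black line for the median of other probes of like brightness. Bright probes cluster near the line and 13 of the 15 dim probes on Ensembl or GenBank sequences lie below it, the other two being the Rpl26 probe at 2.58 and an Rps4x probe at 1.00.

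The ribosomal protein genes together held 10.4% and 10.7% of the summed processed signal of all genes on controls 1 and 2, and 10.4% and 9.54% on Cre arrays 1 and 2. The share of Cre array 1 lay at the level of control 1, and that of Cre array 2 lay below the other 3. The mean difference of -0.61 percentage points was therefore -0.06 within array number 1 and -1.16 within number 2. With quantile normalization the difference was -1.79 points.

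The direction of the whole group depended on how the arrays were scaled. With scaling to the median over probes, which moved the median of all genes to -0.52, the group's median was -0.70 and 43 of 82 genes were called lower, where 33.1% of all genes were called lower. That scaling called 1980 genes higher (8.81%) and 7436 lower over the array, against 1580 higher and 321 lower with the 75th percentile. With quantile normalization the group's median was -0.24 and 77 genes were negative. With cyclic loess it was 0.25 and 75 genes were positive, of which 0 were called, against 3.13% of all genes in either direction. Relative to the median of all genes the group stood at -0.18 under both percentile scalings and at 0.16 under cyclic loess. In the authors' deposited table, 83 gene names that fit the name rule had a log2 difference, 58 of them negative and 25 positive. They include Rpl32l (-0.14), a name in that table that is not among the members described here. With it, the median was -0.10, the range was -0.72 to 0.32 and 0 had an adjusted p under 0.05 (the smallest is 0.070).

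**Figure D5:**
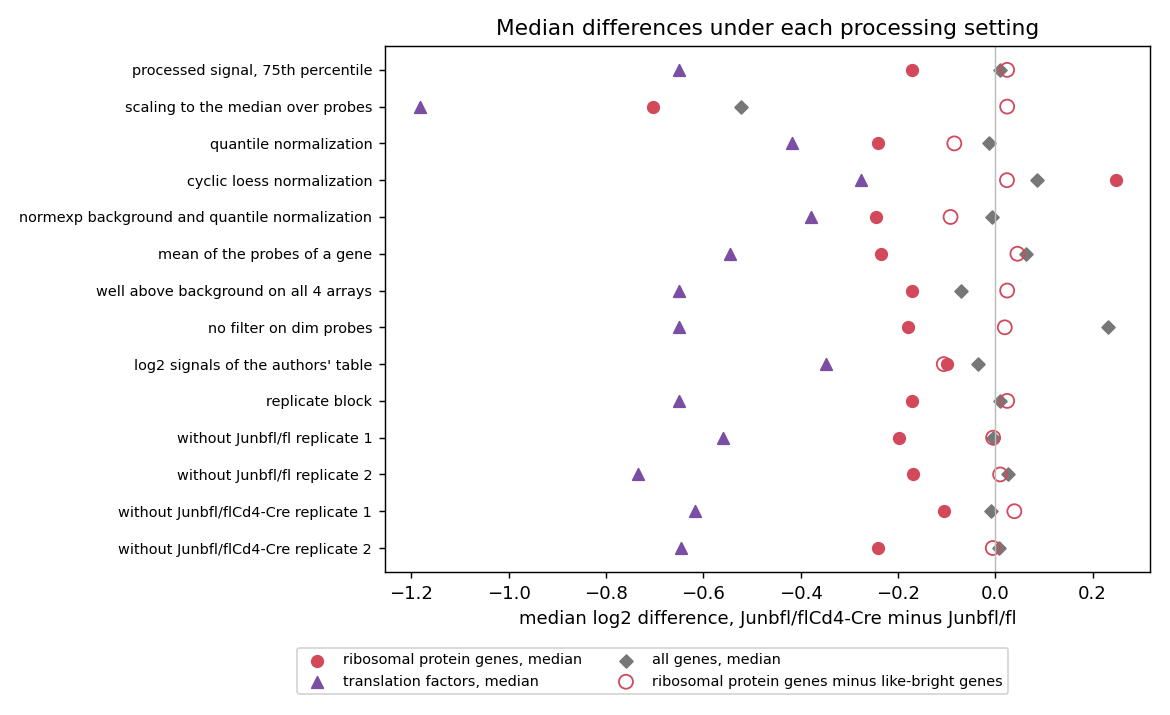
Median log2 difference (horizontal axis) of ribosomal protein genes, translation factors and all genes tested, and of ribosomal protein genes minus genes of like brightness (open circles), under each processing setting (rows). The ribosomal protein median crosses from -0.17 to 0.25 under cyclic loess, while the open circles stay between -0.11 and 0.05 and the translation factors stay negative throughout.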

How the data were processed

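RNA of 4 samples was read on 1 slide of Agilent one-colour arrays (62976 spots each), 2 per genotype, grouped by sample title. Per the file headers, Agilent Feature Extraction 11.5.1.1 gave each spot a processed intensity, from which background and spatial trends of the array had been removed. The deposited table of the series holds, per the file headers, the authors' log2 signals per array, log2 differences, p-values, and moderated t and log odds scores; the making of its log2 signals is not stated in the labels or headers. Control spots, and 108 to 215 spots per array flagged as outliers, were left out, spots of a probe were averaged, and 56310 probes remained. Processed intensities were put on the log2 scale and each array's 75th percentile over probes (control arrays, 151 and 145; Cre arrays, 119 and 101) was subtracted. Between 59.3% and 66.3% of non-control spots were well above background and 0 were saturated; the number of arrays limits the precision. A probe entered if well above background on both arrays of a genotype, and the brightest probe stood for its gene. Neighbours in brightness were the nearest 2.24% of other genes. Names follow a RefSeq table of GRCm38.p6, apart from members, which keep the name in the files; probe positions are on mm9 as in the files.

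Genotypes were compared with limma 3.58.1 (R 4.3.3; lmFit, eBayes, no covariate) and Benjamini-Hochberg adjustment over all 22475 genes, called at an adjusted p under 0.05. On simulated data of 22475 genes, 2 against 2 arrays, log2 changes of 1 and 2 were called in 0 of 67 genes each and changes of 3 in 12 of 66, with 0 false calls. The simulation shuffled the spreads over genes and changed no other genes, whereas 41.4% of genes had an unadjusted p under 0.05 in the data. Its adjustment was therefore stricter, and its counts do not give the power on the data. There Thy1 was called at a log2 difference of -0.98 (adjusted p = 0.042, limma). Summaries were made with scipy 1.17.1, numpy 2.4.6 and pandas 2.3.3 under Python 3.11.15, and figures with matplotlib 3.10.9.

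The members and lists were chosen with earlier results of these data known. Named are members called, the 6 lowest and 6 highest differences among members above background on all 4 arrays, 15 subunit genes whatever their values, each paralog pair, and, of the other lists, members called and the 2 with the smallest p. Rpl37, Rps12, Rpl26, Eef1a1, Fau and Rack1 were named in addition after their values were seen. A member that this rule takes in is not reported here by name but stays in the fit and in the counts. Alternatives were other scalings, background, probe and filter choices, the authors' log2 signals, the array number as a block, leaving out each array, and other neighbourhoods of brightness; one without the paralogs and Rpl37 was added after seeing the data.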

Additional observations from a re-analysis of the deposited data

How the results depend on the processing

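The count of ribosomal protein genes called lower was 0 here, 43 with scaling to the median over probes, 1 with the mean of a gene's probes and 2 with the replicate block, and 0 under the other settings; 0 were called higher under each setting. The translation factors called lower were 42 with median scaling and 15 with the block. Over all genes 1901 were called, against 9416 with median scaling, 454 with quantile normalization, 703 with cyclic loess, 319 with normexp and quantile normalization, 1259 with a filter for all 4 arrays, 0 with no filter (8825 at an unadjusted p under 0.05), 618 in the authors' log2 signals and 6849 with the block. With any 1 array left out, limma called 0 genes each time, and the unadjusted p was under 0.05 for 4954 to 8140; the lone array of a genotype is then assumed to vary like the others.

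The array numbers coincide with the row of the slide, and the labels do not say that they pair samples. The differences between numbers 1 and 2 in the 2 genotypes had a correlation of 0.50 across all genes. With 2 pairs, arrays of the same number share that number and a row of the slide. A slide block was not run, since there was 1 slide. With the block 2 members (Rps27l and Rps2) were called lower against 0 without it.

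The members' median was -0.70 with median scaling, -0.24 with quantile normalization, 0.25 with cyclic loess, -0.25 with normexp, -0.23 with the mean of probes, -0.10 in the authors' signals and -0.24 to -0.11 with an array left out. Minus genes of like brightness it was -0.084 with quantile normalization, -0.092 with normexp, -0.11 in the authors' signals, -0.087 with the nearest 0.451% and 0.18 with the nearest 8.94% of genes, 0.070 and -0.043 with brightness taken over the control or the Cre arrays, and -0.0051 to 0.039 with an array left out. Both medians in the authors' signals include Rpl32l, which is not among the members. The share of signal differed by -1.74 points with normexp, -1.79 with quantile normalization and -1.01 to -0.20 with an array left out.

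Of the 32 named members, Rps27l, Rps2, Rpl7l1, Rpl22l1, Rpl23a, Rpl7a and Rpl39l (7 in all) kept their sign under each of the 13 other settings; the cause of the other reversals was not tested. Under cyclic loess 17 turned positive: Rpl10 0.33, Rpl10a 0.28, Rpl11 0.31, Rpl22 0.13, Rpl3 0.27, Rpl38 0.35, Rpl39 0.19, Rpl5 0.16, Rpl7 0.10, Rplp0 0.32, Rps14 0.27, Rps19 0.42, Rps25 0.21, Rps27a 0.23, Rps4x 0.041, Rps6 0.17 and Rpsa 0.27. With median scaling Rpl4 was -0.41, Rplp1 -0.48, Rplp2 -0.52, Rps18 -0.44, Rps20 -0.35, Rps24 -0.38, Rps27 -0.49 and Rps4l -0.52. With quantile normalization Rplp1 was -0.20, Rplp2 -0.19, Rps18 -0.25, Rps20 -0.11, Rps24 -0.042 and Rps27 -0.067. With normexp they were Rplp1 -0.18, Rplp2 -0.25, Rps18 -0.31, Rps20 -0.17, Rps24 -0.083 and Rps27 -0.062. With the mean of probes Rplp1 was -0.17, Rps18 -0.15, Rps20 -0.18, Rps24 -0.067 and Rps4x 0.14. In the authors' signals Rpl22 was 0.022, Rpl38 8.3e-05, Rplp1 -0.15, Rplp2 -0.19, Rps20 -0.093, Rps24 -0.039, Rps4l -0.014 and Rps4x 0.045. With an array left out, Rplp2 ranged from -0.023 to 0.043, Rps27 from -0.059 to 0.15, Rps4l from -0.39 to 0.42 and Rps19 from -0.11 to 0.091.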
